A study of Mus musculus with 5 samples.

Results

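Gene expression was compared between mouse gastric organoids from subcutaneous tumours with Trp53 loss and a short hairpin against Cdh1, and control gastric organoids that had not been inoculated. The comparison used 3 of the 5 arrays of the study, chosen by their labels. They were 1 control array, 1 array with hairpin 1 (shCdh1 #1) and 1 array with hairpin 2 (shCdh1 #2), all on 1 slide. The control organoids came from Trp53flox/flox mice, carried the pLKO.1 vector with a luciferase hairpin (shLuc), and were sampled before inoculation. The remaining arrays were tumour-derived organoids with Trp53 loss plus Apc580D or plus Pik3caH1047R, 1 array each on another slide, and serve only as side values. All 5 samples were labelled female and stomach. The growth medium held EGF, R-spondin1, Noggin, the ROCK inhibitor Y27632, Jagged-1 and the GSK3 inhibitor CHIR-99021, and the labels give no other medium for any group. The animals' age, the number of animals, and the line and tumour that each organoid came from were not given in the sources used here. Trp53 loss, the Cdh1 hairpin, growth as a tumour, recovery from it and any difference of organoid line separate the same arrays, so their parts in a difference cannot be told apart.

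Cdh1 encodes E-cadherin, the transmembrane protein that joins neighbouring epithelial cells at adherens junctions and is tied to actin through beta-catenin and alpha-catenin. Inherited loss of this gene causes hereditary diffuse gastric cancer in people. Trp53 encodes p53, a transcription factor that responds to DNA damage and other stress by activating genes of cell cycle arrest, DNA repair and cell death. The gastric glands from which such organoids grow hold pit, mucous neck, parietal, chief and endocrine cells beside their progenitors.

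Levels are given as log2 processed signal relative to the 75th percentile of the array, so that 0 is that percentile, and differences are on the log2 scale. On the 3 arrays 61.82% to 62.64% of 59305 spots exceeded background well, and no spot was saturated. Both targeted genes were low in both hairpin arrays. Cdh1 stood at 4.39 in the control, 0.07 in hairpin 1 and 0.26 in hairpin 2. Both hairpin arrays were low, 20.03-fold and 17.6-fold below the control, and the mean difference was −4.23 ± 0.29 (SE of the fit, n = 2 against 1, limma adjusted p = 0.343). In the Apc and Pik3ca arrays, which carry no Cdh1 hairpin by their labels, Cdh1 differed from the control by 0.09 and 0.19. Trp53 stood at 0.85 in the control, −5.06 in hairpin 1 and −5.09 in hairpin 2, 60.5-fold and 61.6-fold lower. It was also low in the Apc and Pik3ca arrays, by −6.72 and −5.71. The Trp53 difference was −5.93 ± 0.27 (limma adjusted p = 0.28), and whether the probe lies in the deleted part of the gene was not given in the sources used here. The epithelial markers Epcam, Krt8, Krt18 and Krt19 were well above background on all 3 arrays. Epcam, an epithelial adhesion molecule, stood at 3.15 in the control, 3.72 in hairpin 1 and 4.21 in hairpin 2. The keratin genes Krt18 (8.11, 8.12 and 7.90) and Krt19 (7.29, 7.50 and 7.16) lay within 0.21 log2 of the control in both hairpin arrays, and Krt8 (7.61, 7.50 and 6.75) differed by −0.86 in hairpin 2.

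No gene passed the test of hairpins against control. Of 16876 genes tested, 0 had a limma adjusted p under 0.05 (0.0%), 1669 had an unadjusted p under 0.05, and the smallest adjusted p was 0.28. The error in this fit comes from 1 pair of hairpin arrays, moderated by limma with the spread over all genes. The single control array is taken to have the same spread, and a permutation of 3 arrays cannot give a p below 0.333. What follows therefore describes levels, and "higher" and "lower" state the position of the arrays, not a passed test. Both hairpin arrays lay above the control for 7327 genes (43.4%) and below it for 5461 (32.4%), while 4088 genes lay on opposite sides. Both were at least 2-fold higher for 810 genes (4.8%) and at least 2-fold lower for 808 (4.79%). Quantile normalization gave 588 higher and 925 lower, and scaling to the array median gave 649 and 974. Hairpin 2 alone would give 1785 higher and 1420 lower, and hairpin 1 alone 1358 and 1472. Among the 14767 genes well above background on all 3 arrays, called measured below, 385 were at least 2-fold higher (2.61%) and 553 at least 2-fold lower (3.74%). Because both differences are taken from the same control array, their agreement is not independent support. The genes nearest to the 2-fold line were Il13ra2 and Exoc3l just inside (both with a smaller difference of 1.01) and H2-Bl and G2e3 just outside (both 1.00) among higher genes. Among lower genes, Thap6 and Tcp11l2 were just inside and Pink1 and Lipt2 just outside (all at 1.00).

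**Figure D1:**
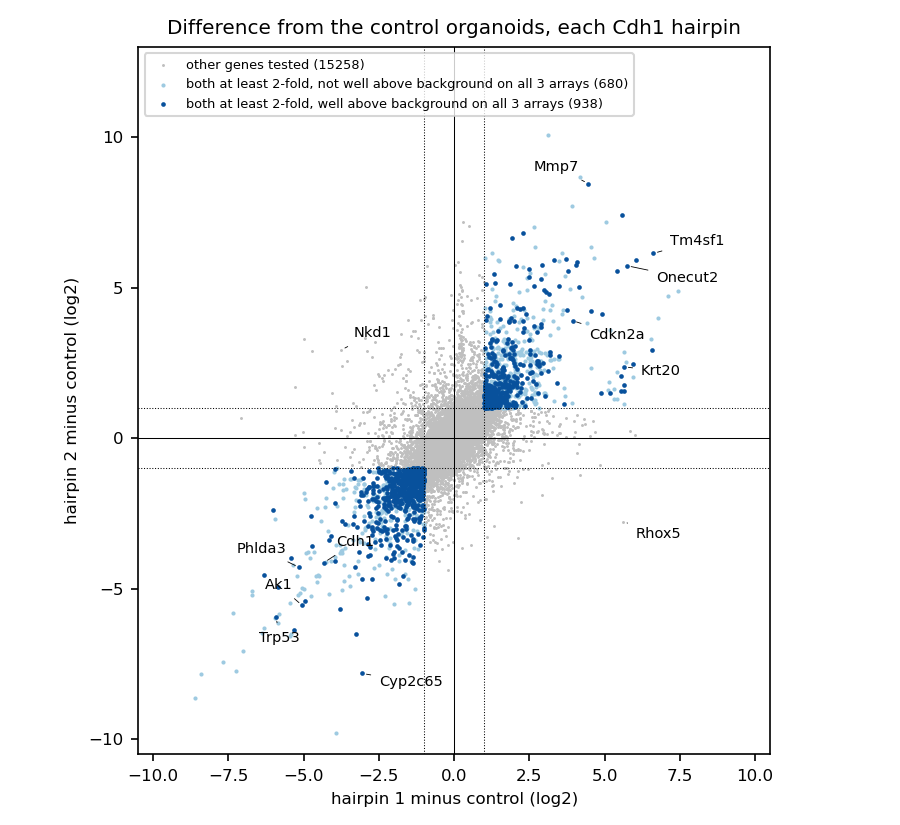
Difference from the control array in hairpin 1 (x axis, log2) and hairpin 2 (y axis, log2) for the 16876 genes tested, with dotted lines at 2-fold. The 938 measured genes at least 2-fold from the control in both hairpins (dark) fall into 385 higher and 553 lower, and a few named genes, among them Rhox5 and Nkd1, lie on opposite sides.

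Ranked by the smaller of both hairpin differences, the leading higher genes included surface proteins, developmental transcription factors and secreted factors. Tm4sf1, a tetraspanin-like membrane protein, stood at −4.29 in the control, 2.33 in hairpin 1 and 1.85 in hairpin 2, 98.7-fold and 70.6-fold higher, with a mean difference of 6.38 ± 0.36 (limma adjusted p = 0.296). Onecut1 and Onecut2 encode transcription factors of liver, pancreas and foregut development. Onecut1 stood at −5.10 in the control, 0.95 in hairpin 1 and 0.82 in hairpin 2 (5.99 ± 0.28, limma adjusted p = 0.28). Onecut2 stood at −1.77 in the control, 3.98 in hairpin 1 and 3.97 in hairpin 2 (5.74 ± 0.27, limma adjusted p = 0.28). For both genes the hairpin arrays lay within 0.13 log2 of each other and far above the control. Cdkn2a, which encodes the Ink4a and Arf tumour suppressors, was already above the 75th percentile in the control. It stood at 2.07 in the control, 6.01 in hairpin 1 and 5.98 in hairpin 2, 15.3-fold and 15-fold higher (3.92 ± 0.27, limma adjusted p = 0.343). Cldn3, a tight junction claudin, stood at −1.04 in the control, 3.49 in hairpin 1 and 3.17 in hairpin 2, 23.2-fold and 18.6-fold higher.

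Other leading higher genes differed more between the hairpins. Mmp7, the epithelial matrix protease matrilysin, stood at −3.31 in the control, 1.15 in hairpin 1 and 5.15 in hairpin 2, which is 21.9-fold and 353-fold higher. Hairpin 2 was the higher array, and the hairpins were further apart than for Onecut1. The proton channel genes Otop3 (−5.52, −0.10 and 0.03 in control, hairpin 1 and hairpin 2) and Otop2 (−5.56, −1.83 and 0.38 in the same order) were near the background limit in the control. Ptgs1, the constitutive cyclooxygenase, stood at −1.99, 2.17 and 3.05, in that order. Clec2f, a C-type lectin gene, stood at −0.94, 3.99 and 3.18. Hkdc1, a member of the hexokinase family, stood at −4.09, 0.01 and 1.75, and the polysialic acid synthase gene St8sia4 at −4.96, −0.90 and 0.79. Prss12, a serine protease gene, stood at −1.91, 1.87 and 3.65. In all of these genes both hairpin arrays were at least 13.3-fold above the control, and hairpin 2 was the higher one except in Clec2f, with Otop3 nearly level.

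The leading lower genes included p53 targets, gastric secretory products and drug-metabolism genes beside Trp53 and Cdh1. Ak1, an adenylate kinase gene, stood at 2.02 in the control, −3.04 in hairpin 1 and −3.54 in hairpin 2, 33.2-fold and 47.1-fold lower (−5.31 ± 0.37, limma adjusted p = 0.343). Phlda3, a p53 target that restrains Akt signalling, stood at 4.39 in the control, −0.76 in hairpin 1 and 0.09 in hairpin 2, 35.5-fold and 19.7-fold lower (−4.72 ± 0.50, limma adjusted p = 0.414). Both genes were above the 75th percentile in the control and far below the control in each hairpin. Dglucy, which encodes D-glutamate cyclase, stood at 4.07 in the control, −2.24 in hairpin 1 and −0.50 in hairpin 2. Nr1i2, which encodes the pregnane X receptor, stood at −0.05 in the control, −4.02 in hairpin 1 and −4.12 in hairpin 2, with hairpins 0.10 log2 apart. Cblif, the intrinsic factor gene of mouse chief cells, stood at 3.97 in the control, −1.46 in hairpin 1 and 0.0 in hairpin 2. These hairpin arrays lay at least 15.7-fold below the control for each of the genes just named. Prl2c5 (1.82, −3.49 and −4.54) and Prl2c1 (0.62, −4.33 and −4.80) belong to the proliferin cluster, whose near-identical members a probe may not separate. Rps4l, a copy of a ribosomal protein gene, stood at 1.11, −4.74 and −3.82 and has a close paralogue. H2-Eb1, a chain of MHC class II, stood at −1.50, −5.58 and −4.76, Pla2g1b, a secreted phospholipase, at 0.01, −4.14 and −3.39, and Pgap4, a gene of glycolipid anchor synthesis, at 2.91, −0.39 and −1.38.

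**Figure D2:**
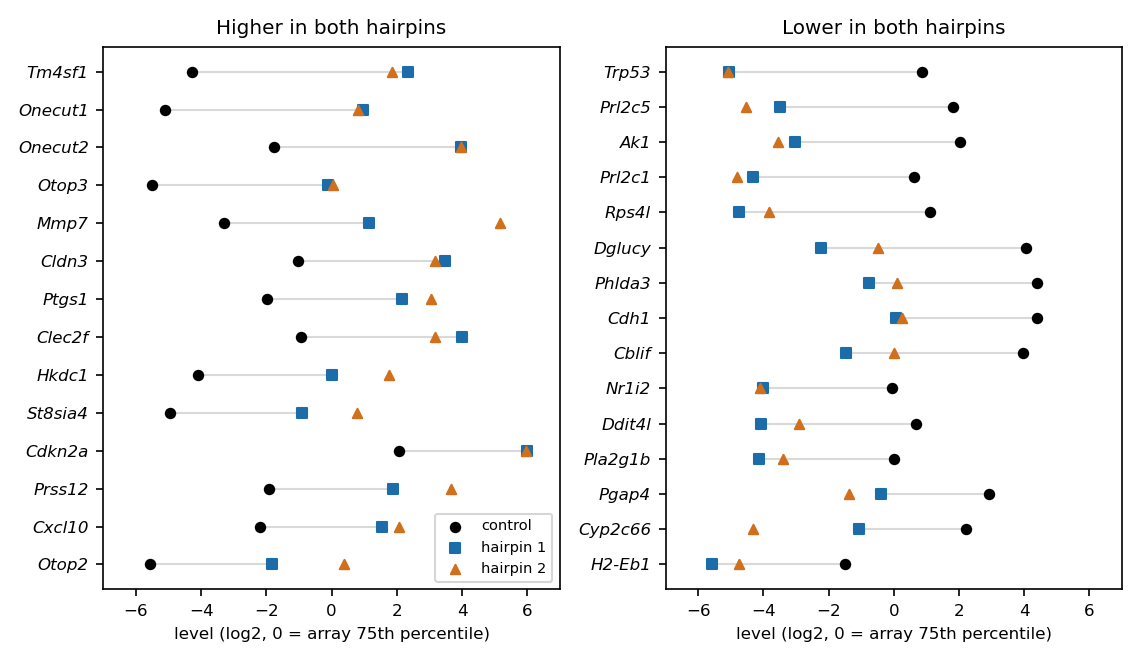
Level in each array (log2, 0 is the 75th percentile of the array) of the leading measured genes named in the text, higher in both hairpins (left) and lower in both (right), 1 point per array. In every row both hairpin points fall to one side of the control point, as the naming rule requires, and Mmp7 and Cyp2c66 show the widest gaps between hairpins.

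Some genes were well above background on only one side, so their folds are lower bounds, set against the lowest signal well above background or the gene's own signal where that is higher. Each bound compares the mean log2 level of both hairpins with the control, so a single hairpin can lie below it. Both hairpins detected 371 genes that the control did not, 150 of them with a bound of at least 2-fold. Enpp2, which encodes the lysophospholipase autotaxin, was at least 68.3-fold higher in the hairpin mean, at −3.45 in hairpin 1 and 3.50 in hairpin 2. The signalling regulator Rgs16 was at least 46.8-fold higher in the mean, at −2.77 and 1.74. Hairpin 2 was the brighter array in both of these genes, and hairpin 1 alone lay below the bound. Mmp14, the membrane-bound collagenase, had a mean at least 20.7-fold higher, and the adenosine receptor gene Adora2a at least 17.1-fold. Esx1, a homeobox gene, had a mean at least 34.1-fold higher, Pramel39 at least 27.3-fold and Fjx1 at least 18.9-fold. Differences of dim genes were smaller with normexp background correction, 2.18 in place of 5.33 log2 for Mmp14 and 2.99 in place of 6.11 for Esx1.

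In the other direction, 363 genes were detected in the control and in neither hairpin, 104 of them with a bound of at least 2-fold. Mgmt, which encodes the enzyme that removes alkyl groups from guanine, stood at 1.49 in the control and was at least 167-fold lower in the hairpin mean. The carboxylesterase gene Ces2e stood at 0.51 and was at least 84.7-fold lower. Eda2r, a p53-regulated receptor of the TNF receptor family, stood at −0.36 and was at least 46.4-fold lower. In each of these the hairpin signals were below the background limit. Cckar, a cholecystokinin receptor gene, was at least 37.1-fold lower, and Zfp365 at least 32.4-fold. Runx1t1, a transcriptional co-repressor gene, was at least 27.7-fold lower, the interleukin gene Il1f9 at least 21.8-fold, and Ms4a10 at least 20.5-fold.

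Of 30 p53 target genes tested, 25 were below the control in both hairpins and 3 above. At least 2-fold lower in both were 16, against 4.79% of all genes tested, and 1, the apoptosome gene Apaf1, was at least 2-fold higher. Among the 29 measured members, 15 were at least 2-fold lower, against 3.74% of measured genes. The median difference over the list was −1.40 in hairpin 1 and −1.18 in hairpin 2, against 0.07 and 0.08 over all genes. None of the members passed the test, and the same holds for every list below. The counts of each list are to be read against the shares of all genes tested, 43.4% above and 32.4% below the control in both hairpins, 4.8% at least 2-fold higher and 4.79% at least 2-fold lower. Cdkn1a, the p53-induced inhibitor of cyclin-dependent kinases, stood at 4.03 in the control, 2.08 in hairpin 1 and 1.82 in hairpin 2, 3.88-fold and 4.64-fold lower (−2.08 ± 0.30, limma adjusted p = 0.425). Both of its probes were lower but differed in size, and the median over them gave −4.57. Mdm2, which encodes the ubiquitin ligase that degrades p53, stood at 4.18 in the control, 2.83 in hairpin 1 and 2.91 in hairpin 2, 2.56-fold and 2.42-fold lower. Ccng1, cyclin G1, stood at 3.58 in the control, 0.77 in hairpin 1 and 1.0 in hairpin 2, 6.97-fold and 5.95-fold lower. The hairpin arrays lay close together for these genes and did not reach the control. Gdf15, a stress-induced secreted factor, stood at 4.30 in the control, 1.44 in hairpin 1 and 0.39 in hairpin 2. Zmat3, an RNA-binding protein gene, stood at 2.57 in the control, −0.76 in hairpin 1 and −0.02 in hairpin 2. Ddit4l, a stress-induced regulator of mTOR signalling, stood at 0.67 in the control, −4.07 in hairpin 1 and −2.92 in hairpin 2. The death receptor gene Fas (0.45, −2.10 and −0.56) and Tap1 (0.67, −2.77 and −0.41), a peptide transporter gene, were farther below the control in hairpin 1 than in hairpin 2. Apaf1 stood at −3.35 in the control, −1.28 in hairpin 1 and −1.56 in hairpin 2. These values are from its brighter probe, with a mean difference of 1.93, while its other probe gave −0.38. In the Apc and Pik3ca arrays, compared with the same control, the list's medians were −1.47 and −1.40. Mdm2, Ccng1, Fas, Tap1 and Apaf1 were singled out after their values were seen.

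Promoters were searched for the p53 half-site, the unit that occurs in pairs in p53 response elements, on both strands, in 300-base windows from RefSeq (GRCm38.p6) that run from 250 bases before to 50 after the start. Of 32851 promoters 2745 held it (8.36%), and 9.55% of genes. Among the 17 list members at least 2-fold from the control in both hairpins, 15 matched a promoter and 5 of these held it, namely Aen, Ccng1, Cdkn1a, Ddit4l and Mdm2. All of these were lower. Over all 30 members tested, 25 matched and 10 held it. The windows of 4 of them follow, since they show the letters beside genes with large differences. The sequences run 5′ to 3′ on the gene's strand with the half-site in capitals.
Cdkn1a, chr17:29090729-29091028, plus strand: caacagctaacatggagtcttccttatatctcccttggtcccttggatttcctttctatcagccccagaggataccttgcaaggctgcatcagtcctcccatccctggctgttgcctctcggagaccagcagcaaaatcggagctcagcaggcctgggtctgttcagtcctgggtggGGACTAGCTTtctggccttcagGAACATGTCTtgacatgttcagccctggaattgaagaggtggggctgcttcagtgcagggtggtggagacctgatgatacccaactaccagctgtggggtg
Ccng1, chr11:40755237-40755536, minus strand: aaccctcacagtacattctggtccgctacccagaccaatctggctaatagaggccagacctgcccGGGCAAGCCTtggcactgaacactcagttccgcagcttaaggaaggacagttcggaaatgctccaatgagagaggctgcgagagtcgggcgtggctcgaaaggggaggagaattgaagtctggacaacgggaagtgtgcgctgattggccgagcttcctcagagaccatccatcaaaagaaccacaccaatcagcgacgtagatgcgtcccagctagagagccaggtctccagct
Mdm2, chr10:117710709-117711008, minus strand: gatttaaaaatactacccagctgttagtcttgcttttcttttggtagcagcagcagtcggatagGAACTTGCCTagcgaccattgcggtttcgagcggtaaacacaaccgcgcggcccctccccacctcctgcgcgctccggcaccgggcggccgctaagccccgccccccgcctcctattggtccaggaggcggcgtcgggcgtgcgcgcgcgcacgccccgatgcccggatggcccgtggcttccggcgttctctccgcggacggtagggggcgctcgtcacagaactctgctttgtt
Ddit4l, chr3:137623422-137623721, plus strand: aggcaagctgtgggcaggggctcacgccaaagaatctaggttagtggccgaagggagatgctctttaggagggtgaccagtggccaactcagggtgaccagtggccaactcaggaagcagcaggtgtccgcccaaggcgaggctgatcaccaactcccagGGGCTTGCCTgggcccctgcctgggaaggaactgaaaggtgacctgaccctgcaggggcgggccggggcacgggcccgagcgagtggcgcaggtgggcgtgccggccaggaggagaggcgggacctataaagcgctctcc
Counted from the start site of the window shown, the first match starts at −73 in Cdkn1a, −185 in Ccng1, −186 in Mdm2 and −90 in Ddit4l. A gene can have more than 1 start site in RefSeq, as Aen does, and the position relative to any other start was not examined. Zmat3 and Trp53inp1 had no promoter entry under their symbol. A match is a description of these letters, and binding was not measured.

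Genes of cell cycle and replication lay slightly above the control with little difference between hairpins. Of 26 tested, 24 were above in both hairpins, but 0 were at least 2-fold higher in both and 0 lower. The medians were 0.47 and 0.52. Aurka, a mitotic kinase gene, stood at 3.60 in the control, 4.58 in hairpin 1 and 4.71 in hairpin 2, and Top2a, a DNA topoisomerase gene, at 3.65 in the control, 4.59 in hairpin 1 and 4.77 in hairpin 2. Bub1, a spindle checkpoint kinase gene, stood at 0.78, 1.73 and 1.90. All of these hairpin values lay between 1.91-fold and 2.16-fold above the control. Among 7 genes of inhibitors of cyclin-dependent kinases, 6 were above the control in both hairpins and Cdkn1a was below. Cdkn2d stood at 2.55 in the control, 3.52 in hairpin 1 and 4.24 in hairpin 2 and Cdkn1b at 2.53 in the control, 3.28 in hairpin 1 and 3.61 in hairpin 2.

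Genes of the adherens junction were split. Of 21 tested, 8 were above the control in both hairpins, 5 below and 8 mixed, with medians of 0.04 and 0.19. Cdh1 and Ctnnd2, a delta-catenin gene, were at least 2-fold lower and Cdh17, a gut cadherin, at least 2-fold higher. Cdh17 was not well above background on all 3 arrays, and of the 19 measured members 0 were at least 2-fold higher. Ctnnd2 was detected in the control at −4.42 only. The core catenin genes lay near the control. Ctnna1 (alpha-catenin) stood at 5.64, 5.83 and 5.62 in control, hairpin 1 and hairpin 2, Ctnnb1 (beta-catenin) at 3.58, 3.45 and 3.83, and Ctnnd1 (p120-catenin) at 4.17, 4.21 and 4.17. Vcl, the actin linker vinculin, stood at 2.99 in the control, 3.88 in hairpin 1 and 4.03 in hairpin 2. Cdh2, N-cadherin, was low in the control and hairpin 1 and higher in hairpin 2, at −4.41, −3.74 and −1.38. The placental cadherin gene Cdh3 (−2.78, −3.85 and −1.0) lay on opposite sides of the control in the hairpins. The catenin genes and Cdh3 were singled out after their values were seen.

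Tight junction genes had medians of 0.27 and 0.19, and 2 of 21, Cldn1 and Cldn3, were at least 2-fold higher in both hairpins. Cldn1 was not well above background on all 3 arrays, so Cldn3 was the only 1 among the 20 measured members. Cldn18, the stomach claudin, stood at 1.65 in the control, 1.08 in hairpin 1 and 0.07 in hairpin 2, lower in both arrays but by less than 2-fold in hairpin 1. Among 12 desmosome genes, Pkp1, a plakophilin gene, was at least 2-fold higher (−1.92, −0.02 and 0.74). The desmosome medians were −0.06 and −0.13, and the median of the mean difference per gene, −0.07, became 0.13 without the filter on dim genes. Of 20 genes of epithelial identity, all measured, 1 was at least 2-fold higher and 1 lower. Krt20, a keratin of differentiated gut epithelium, stood at −0.71 in the control, 4.94 in hairpin 1 and 1.66 in hairpin 2, so that hairpin 1 was the higher array by 3.28 log2. Grhl3, an epithelial transcription factor gene, stood at 1.17 in the control, −0.36 in hairpin 1 and −0.67 in hairpin 2, lower in both.

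Genes of epithelial-mesenchymal transition and mesenchymal state were mostly dim. Of the transcription factor list, 7 genes were tested, and Zeb1, Snai1, Snai2, Twist2 and Foxc2 were not, because no probe was well above background on any of the 3 arrays. Prrx2, a homeobox gene, was at least 2-fold higher, at −4.63 in the control, −2.70 in hairpin 1 and 2.02 in hairpin 2, with hairpin 2 far above hairpin 1, and its mean difference of 4.29 was 2.63 with the median over probes. Vim, the intermediate filament gene vimentin, stood at −5.20 in the control, −4.44 in hairpin 1 and −4.70 in hairpin 2, less than 2-fold above the control in either hairpin and close to the background limit. Its differences in the Apc and Pik3ca arrays were 3.88 and 2.77. Of 10 mesenchymal genes tested, 6 were above the control in both hairpins and 2, Fn1 and S100a4, at least 2-fold. Fn1, the matrix protein fibronectin, stood at 0.62 in the control, 2.45 in hairpin 1 and 4.49 in hairpin 2, and S100a4, a calcium-binding protein gene, at −1.0 in the control, 0.59 in hairpin 1 and 0.69 in hairpin 2. Hairpin 2 was the higher array for Fn1, and the hairpins were nearly level for S100a4.

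Genes of the actin cytoskeleton were above the control in both hairpins for 18 of 24 (43.4% of all genes), and 3 were at least 2-fold higher (4.8% of all genes), with medians of 0.40 and 0.46. Rhoc, a small GTPase gene, stood at 2.90 in the control, 4.23 in hairpin 1 and 4.59 in hairpin 2. Myl9, a regulatory light chain of myosin, stood at −4.40 in the control, −1.08 in hairpin 1 and 1.53 in hairpin 2, and Rdx, which encodes the membrane-actin linker radixin, at −3.57 in the control, −1.51 in hairpin 1 and 2.14 in hairpin 2. Both Myl9 and Rdx were much higher in hairpin 2 than in hairpin 1. Among 19 genes of integrins and hemidesmosomes, Tm4sf1 was at least 2-fold higher and Itgb4 lower. Itgb4, the hemidesmosome integrin chain, stood at 5.13 in the control, 4.04 in hairpin 1 and 3.94 in hairpin 2, 2.12-fold and 2.28-fold lower, while Itga2, a collagen receptor chain, stood at 1.14 in the control, 2.04 in hairpin 1 and 2.56 in hairpin 2.

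Matrix proteases and their inhibitors were higher in both hairpins for 8 of 13, against 43.4% of all genes. At least 2-fold higher were 5 (Mmp7, Mmp14, Plau, Adamts1 and Timp1), against 4.8% of all genes, and Adam8 was at least 2-fold lower. Mmp14 was not well above background in the control, so it entered the list only through the hairpin arrays. Among the 12 measured members, 4 were at least 2-fold higher in both, against 2.61% of measured genes. The medians were 0.88 and 1.48, and those of the Apc and Pik3ca arrays against the same control were 1.77 and 1.28. Plau, the urokinase gene, stood at −3.12 in the control, −1.20 in hairpin 1 and −0.08 in hairpin 2, and Adamts1, a secreted metalloprotease gene, at −3.37 in the control, −1.50 in hairpin 1 and −0.72 in hairpin 2. Timp1, an inhibitor of matrix proteases, stood at −0.84 in the control, 0.25 in hairpin 1 and 1.42 in hairpin 2. For each of these hairpin 2 was the higher array, and both hairpins were above the control. Adam8, a membrane metalloprotease gene, stood at 4.0 in the control, 2.50 in hairpin 1 and 1.89 in hairpin 2. Mmp2, Mmp3, Mmp9, Mmp10, Mmp12 and Mmp13 were not tested, because no probe was well above background on the 3 arrays.

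**Figure D3:**
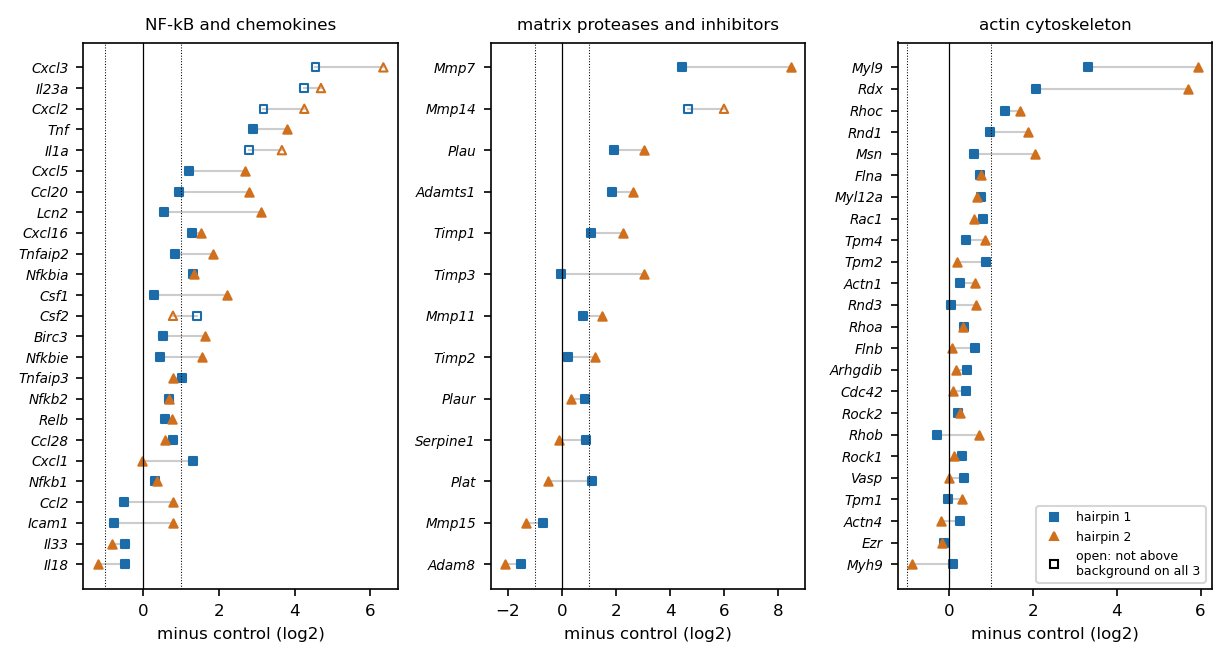
Difference from the control (x axis, log2) in hairpin 1 (squares) and hairpin 2 (triangles) for the tested members of 3 gene lists, with dotted lines at 2-fold and open symbols for genes not well above background on all 3 arrays. Most members lie to the right of 0, by 20 of 25, 8 of 13 and 18 of 24 in both hairpins, and wide gaps between hairpins are seen in Mmp7, Timp3 and Rdx.

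Markers of several gastric lineages were lower, and those of chief cells, the enzyme-secreting cells at the gland base, had the lowest medians of the 34 lists. All 6 chief cell markers tested were measured, 5 were below the control in both hairpins, and the same 5 were at least 2-fold lower, against 4.79% of all genes. The medians were −3.14 and −2.25, and the summed level of the list, in linear signal relative to the 75th percentile, was 122 in the control, 9.03 in hairpin 1 and 24.1 in hairpin 2. Against the same control, the list's medians were −2.18 in the Apc array and −4.93 in the Pik3ca array. Pgc, the pepsinogen C gene, stood at 3.11 in the control, 0.01 in hairpin 1 and 1.31 in hairpin 2, 8.56-fold and 3.50-fold lower. Bhlha15, which encodes the chief cell transcription factor Mist1, stood at 2.65 in the control, 0.07 in hairpin 1 and −0.33 in hairpin 2, 5.97-fold and 7.88-fold lower. Cym, the milk-clotting protease gene, stood at 5.22 in the control, −0.81 in hairpin 1 and 2.83 in hairpin 2, and Clps, colipase, at 5.76 in the control, 2.59 in hairpin 1 and 3.66 in hairpin 2. Hairpin 1 was the lower array in Pgc, Cym and Clps, as in Cblif. Pga5, a pepsinogen gene, was near background in all 3, at −5.71, −5.72 and −4.64. In a bulk sample, fewer cells of a type and less RNA per cell cannot be told apart.

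Pit cell markers, those of the mucus-secreting surface, were below the control in both hairpins for 12 of 14 (32.4% of all genes). At least 2-fold lower were 3 (4.79% of all genes), and the medians were −0.72 and −1.04. Among the 11 measured members, 2 were at least 2-fold lower, against 3.74% of measured genes. Psca, a surface protein gene, stood at 2.99 in the control, 0.96 in hairpin 1 and −0.85 in hairpin 2, and Mucl3, a mucin-like gene, at 0.63 in the control, −1.35 in hairpin 1 and −2.62 in hairpin 2. Sult1c2, a sulfotransferase gene, stood at 6.59 in the control, 5.69 in hairpin 1 and 5.82 in hairpin 2, and Muc1, a membrane mucin gene, at 5.32 in the control, 4.49 in hairpin 1 and 4.64 in hairpin 2, both less than 2-fold lower. Of 10 mucous neck cell markers, 7 were below in both hairpins and 2, Cxcl17 and Glipr1, at least 2-fold. Tff2, the trefoil factor of neck cells, stood at 3.43 in the control, 2.51 in hairpin 1 and 1.98 in hairpin 2, and Aqp5, a water channel gene, at 6.40 in the control, 5.55 in hairpin 1 and 5.05 in hairpin 2. In most of these markers hairpin 2 was the lower array. Parietal cell markers had medians of −0.07 and −0.43. Car2, a carbonic anhydrase gene, was 2.11-fold and 2.62-fold lower (5.67, 4.59 and 4.28).

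Of 10 endocrine markers tested, 2 were at least 2-fold lower (Isl1 and Slc18a1) and 2 higher (Neurog3 and Pax6). Both lower genes were measured, while neither higher gene was well above background on all 3 arrays. Isl1, an endocrine transcription factor gene, stood at −1.18 in the control, −3.64 in hairpin 1 and −4.23 in hairpin 2, and Sst, somatostatin, at −1.88 in the control, −4.97 in hairpin 1 and −2.83 in hairpin 2. Of these 10 markers 5 were measured on all 3 arrays. Intestinal markers were split, with medians of 0.19 and −0.39. Tff3, a goblet cell trefoil factor, stood at −1.07 in the control, −2.70 in hairpin 1 and −5.13 in hairpin 2, and Fabp2, an enterocyte fatty acid binding protein gene, at −0.72 in the control, −2.06 in hairpin 1 and −3.17 in hairpin 2. The foregut and gastric transcription factors had medians of 0.06 and 0.08, although the median of the mean difference per gene was −0.10, and apart from Onecut1 and Onecut2 only Nkx6-3, near the background limit, was at least 2-fold higher among the 22 tested. Pdx1, a transcription factor of antrum and pancreas, stood at 1.24 in the control, 1.88 in hairpin 1 and 2.14 in hairpin 2, and Hnf4a, of gut epithelium, at 4.86 in the control, 4.47 in hairpin 1 and 4.37 in hairpin 2. Among 13 stem and progenitor markers, 2 were at least 2-fold lower, Bhlha15 and Sox9. Sox9, a progenitor transcription factor gene, stood at 1.66 in the control, 0.40 in hairpin 1 and 0.41 in hairpin 2, 2.39-fold and 2.37-fold lower, with the hairpins level. Squamous markers were mixed, with 6 of 12 above the control in both hairpins, 3 below, and medians of 0.31 and 0.06. At least 2-fold in both, 0 were higher and 2 lower, 1 of them measured. The basal keratin gene Krt5 stood at −3.51 in the control, −5.48 in hairpin 1 and −5.46 in hairpin 2. Its mean difference of −1.96 was −0.67 with normexp. Ivl, Krt14, Krt6a and Trp63 were higher, with mean differences of 1.01, 0.86, 0.48 and 0.52.

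Genes of xenobiotic and glutathione metabolism were lower across most of the list. Of 30 tested, 25 were below the control in both hairpins, 17 of them at least 2-fold, against 4.79% of all genes. Only 1, Ahr, was at least 2-fold higher. Among the 26 measured members, 13 were at least 2-fold lower, against 3.74% of measured genes. The medians were −1.38 and −1.82, and those of the Apc and Pik3ca arrays against the same control were −1.5 and −1.39. Cyp2c65 and Cyp2c66 encode near-identical cytochrome P450 enzymes of the gut, which the probes may not separate. Cyp2c65 stood at 3.16 in the control, 0.11 in hairpin 1 and −4.66 in hairpin 2, and Cyp2c66 at 2.20 in the control, −1.06 in hairpin 1 and −4.31 in hairpin 2. In both, hairpin 1 was intermediate and hairpin 2 low. Nqo1, a quinone reductase gene, stood at 2.11 in the control, −0.14 in hairpin 1 and −0.91 in hairpin 2, 4.73-fold and 8.09-fold lower. Gclc, the rate-limiting enzyme of glutathione synthesis, stood at 5.23 in the control, 3.46 in hairpin 1 and 3.34 in hairpin 2, 3.41-fold and 3.69-fold lower. Gstm1, a glutathione transferase gene well above the 75th percentile in the control, stood at 6.96 in the control, 5.60 in hairpin 1 and 4.86 in hairpin 2. Aldh3a1, an aldehyde dehydrogenase gene, stood at 5.19 in the control, 2.65 in hairpin 1 and 2.95 in hairpin 2, and Srxn1, sulfiredoxin, at 4.59 in the control, 2.81 in hairpin 1 and 2.52 in hairpin 2. The control lay above both hairpins in each of these genes. Ces1d, a carboxylesterase gene, was 6.02-fold and 5.05-fold lower. Ahr, the aryl hydrocarbon receptor gene, stood at 1.24 in the control, 2.41 in hairpin 1 and 2.75 in hairpin 2, higher in both. Gclc, Gstm1, Aldh3a1, Srxn1 and Ahr were singled out after their values were seen.

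**Figure D4:**
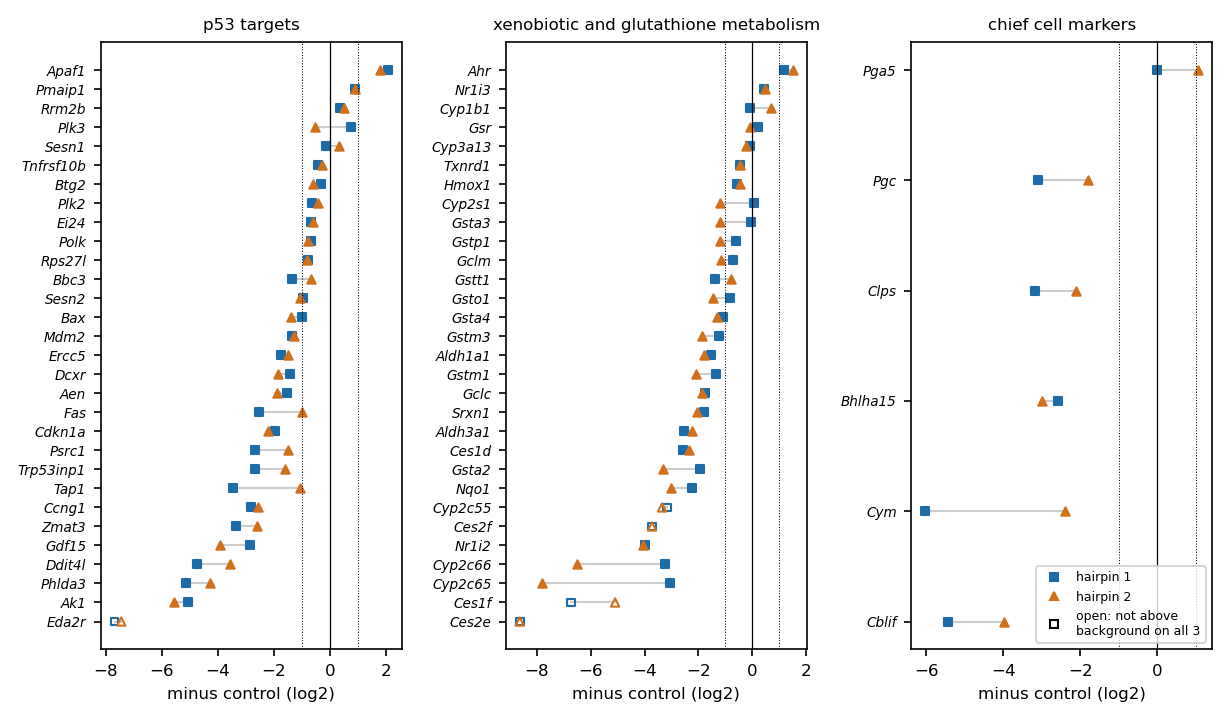
Difference from the control (x axis, log2) in hairpin 1 (squares) and hairpin 2 (triangles) for the tested members of the p53 target, xenobiotic and glutathione, and chief cell lists, with dotted lines at 2-fold and open symbols for genes not well above background on all 3 arrays. Most members lie to the left of 0, with 25 of 30, 25 of 30 and 5 of 6 below the control in both hairpins.

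NF-kB targets and chemokines were higher. Of 25 tested, 20 were above the control in both hairpins, 8 of them at least 2-fold, against 4.8% of all genes, and 0 were at least 2-fold lower. Well above background were 20 of the 25 in the control, 25 in hairpin 1 and 24 in hairpin 2. Some members therefore entered the list only through the hairpin arrays. Among the 20 measured members, 4 were at least 2-fold higher in both, against 2.61% of measured genes. The medians were 0.84 and 1.53, and those of the Apc and Pik3ca arrays against the same control were 1.06 and 0.47. Tnf, the cytokine gene, stood at −3.42 in the control, −0.52 in hairpin 1 and 0.37 in hairpin 2, 7.48-fold and 13.8-fold higher. Nfkbia, which encodes the NF-kB inhibitor that NF-kB itself induces, stood at 3.21 in the control, 4.54 in hairpin 1 and 4.56 in hairpin 2, 2.50-fold and 2.54-fold higher. Cxcl16, a membrane-bound chemokine gene, stood at 0.87 in the control, 2.15 in hairpin 1 and 2.40 in hairpin 2. The hairpins lay close together for Nfkbia and Cxcl16. Cxcl5, a neutrophil chemokine gene, stood at −1.09 in the control, 0.14 in hairpin 1 and 1.59 in hairpin 2, and Ccl20, which attracts cells bearing Ccr6, at −0.26 in the control, 0.69 in hairpin 1 and 2.53 in hairpin 2. Hairpin 2 was the higher array in both. Cxcl2, Cxcl3, Il1a and Il23a made up the rest of the 8 and were not well above background on all 3 arrays. Cxcl3 was not well above background in the control and was at least 8.94-fold higher in the hairpin mean, at −3.80 in hairpin 1 and −2.01 in hairpin 2. Il1b, Il6 and Csf3 were not tested, since no probe was well above background.

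The kB motif GGGANTTTCC, searched on both strands, occurred in 135 of 32851 promoters of the same length (0.411%) and in 0.466% of genes. Of the 8 members at least 2-fold higher, 5 matched a promoter and 3 held it, Cxcl2, Cxcl3 and Nfkbia. Over all 25 members tested, 19 matched and 6 held it. The windows of Nfkbia and Cxcl3 are shown with the motif in capitals, 5′ to 3′ on the gene's strand, because these genes differ most in their level in the control.
Nfkbia, chr12:55492598-55492897, minus strand: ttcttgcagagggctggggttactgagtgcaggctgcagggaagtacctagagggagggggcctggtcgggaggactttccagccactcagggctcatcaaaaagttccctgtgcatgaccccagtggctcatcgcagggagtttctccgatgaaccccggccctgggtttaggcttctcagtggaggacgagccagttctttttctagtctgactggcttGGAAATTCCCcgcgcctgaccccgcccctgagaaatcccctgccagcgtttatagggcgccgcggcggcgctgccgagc
Cxcl3, chr5:90785851-90786150, plus strand: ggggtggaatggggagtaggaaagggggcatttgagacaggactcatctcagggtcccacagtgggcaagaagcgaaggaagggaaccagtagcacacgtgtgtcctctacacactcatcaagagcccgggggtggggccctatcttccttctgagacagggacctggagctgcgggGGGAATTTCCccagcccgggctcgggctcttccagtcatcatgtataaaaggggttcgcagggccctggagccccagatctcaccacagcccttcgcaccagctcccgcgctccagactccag
The match starts at −29 from the start site in Nfkbia and at −73 in Cxcl3.

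Interferon-stimulated genes were above the control in both hairpins for 12 of 21 (43.4% of all genes) and at least 2-fold for 5 (4.8% of all genes), with medians of 0.72 and 0.45. Cxcl10, an interferon-induced chemokine, stood at −2.19 in the control, 1.54 in hairpin 1 and 2.06 in hairpin 2, 13.3-fold and 19-fold higher. Isg15, a ubiquitin-like protein gene, stood at −1.06 in the control, 0.75 in hairpin 1 and 0.55 in hairpin 2, and Rsad2, the antiviral gene viperin, at −5.72 in the control, −2.54 in hairpin 1 and −2.86 in hairpin 2. The hairpins were less than 2-fold apart for each of these. The mean difference of Rsad2, 3.02, was 1.75 with the median over probes and 1.37 with normexp. The list's summed level was 44.1 in the control, 69.3 in hairpin 1 and 42.8 in hairpin 2, so that it was not higher in hairpin 2. Against the same control, Isg15 differed by 3.69 in the Apc array and by 3.01 in the Pik3ca array.

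EGF ligands and genes of ERK feedback were above the control in both hairpins for 20 of 25 (43.4% of all genes), with 4 at least 2-fold higher (4.8% of all genes) and medians of 0.46 and 0.50. Ier3, an immediate early gene, stood at 2.27 in the control, 4.13 in hairpin 1 and 4.17 in hairpin 2, and the MAP kinase phosphatase gene Dusp4 at 1.36 in the control, 3.30 in hairpin 1 and 3.06 in hairpin 2. Egr1, an immediate early transcription factor, stood at 1.81 in the control, 2.87 in hairpin 1 and 3.74 in hairpin 2. Both hairpins were above the control in all of these. Hypoxia and glycolysis genes had 15 of 22 above in both and 2 at least 2-fold higher, beside the same shares of all genes. Vegfa, the angiogenic growth factor, stood at 3.13 in the control, 5.76 in hairpin 1 and 5.02 in hairpin 2, and Ankrd37 at 2.50 in the control, 4.22 in hairpin 1 and 3.73 in hairpin 2, with hairpin 1 the higher array. The mean difference of Vegfa, 2.26, was 1.24 with the median over probes. In the TGF-beta and BMP list 3 of 21 were at least 2-fold higher (Tgfb2, Bmp4 and Fst) and 1 lower (Inhbb), against 4.8% and 4.79% of all genes. Fst, the activin antagonist follistatin, stood at −4.86 in the control, −2.34 in hairpin 1 and −2.71 in hairpin 2, and Bmp4, a BMP ligand, at −0.45 in the control, 0.88 in hairpin 1 and 2.23 in hairpin 2. Inhbb, an activin subunit gene, stood at −2.70 in the control, −5.08 in hairpin 1 and −3.81 in hairpin 2.

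Wnt targets, in organoids grown with R-spondin1 and CHIR-99021, had medians of −0.05 and 0.20, with 1 of 18 at least 2-fold higher (Tcf7) and 1 lower (Sox9). Ascl2, a stem cell transcription factor gene, stood at 2.89 in the control, 1.93 in hairpin 1 and 1.68 in hairpin 2, lower in both. Among 17 YAP target genes tested, 12 were above in both hairpins and 3 at least 2-fold (Ankrd1, Arhgef17 and Fjx1), while Cdc42ep3 was at least 2-fold lower. Fjx1 was not well above background in the control, so it entered the list only through the hairpin arrays, and Cdc42ep3 was not measured. Among the 15 measured members, 2 were at least 2-fold higher and 0 lower, against 2.61% and 3.74% of measured genes. Ankrd1, a nuclear ankyrin repeat protein gene, stood at −2.12 in the control, 0.77 in hairpin 1 and 3.16 in hairpin 2, and Ccn1, a secreted matrix-associated protein gene, at 0.67 in the control, 1.37 in hairpin 1 and 2.76 in hairpin 2. Hairpin 2 was the higher array in both. Notch pathway genes were split 5, 5 and 5 between above, below and mixed, and Notch4 stood at −1.71 in the control, −2.96 in hairpin 1 and −2.92 in hairpin 2. Its mean difference of −1.23 was −0.02 with the median over probes.

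**Figure D5:**
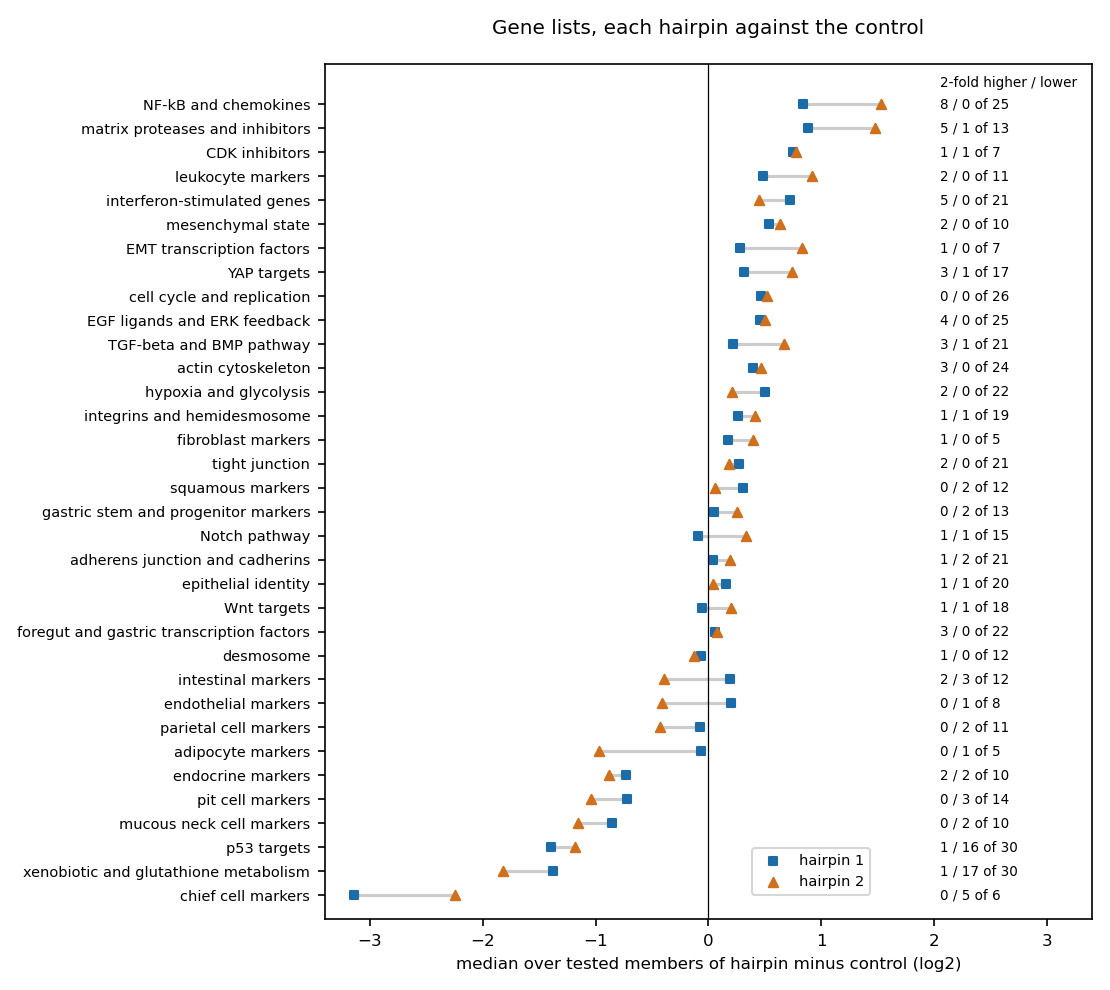
Median over the tested members of each of the 34 gene lists of hairpin 1 minus control (squares) and hairpin 2 minus control (triangles), in log2, with the counts at least 2-fold higher and lower in both hairpins at the right. Chief cell markers, xenobiotic genes and p53 targets lie farthest to the left, and NF-kB genes and matrix proteases farthest to the right.

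Markers of cell types that tumour tissue could add were examined in the same arrays. Of 12 fibroblast markers 5 were tested, and Col3a1, Pdgfrb, Dcn, Lum, Thy1, Postn and Dpt were not, being well above background on none of the 3 arrays. The summed level of those tested was 0.107 in the control, 0.119 in hairpin 1 and 0.151 in hairpin 2. Col1a2, a fibroblast collagen gene, stood at −4.89, −4.70 and −4.50, near the background limit. Whether fibroblasts had a part in the differences of Fn1 and the matrix proteases was not tested. Of 11 endothelial markers 8 were tested and Erg, Tie1 and Cldn5 were not, with sums of 4.98, 2.73 and 1.92 in the same order. Of 16 leukocyte markers 11 were tested, and Adgre1, Lyz2, Itgax, S100a8 and Tyrobp were not. Their sums were 21.2, 27.8 and 38.9, and 9 of 11 were above the control in both hairpins, against 43.4% of all genes. Well above background were 9 of the 11 in the control, 11 in hairpin 1 and 10 in hairpin 2. Some members therefore entered this list only through the hairpin arrays. Among the 9 measured members, 0 were at least 2-fold higher in both, against 2.61% of measured genes. Ptprc, the common leukocyte antigen CD45, was not well above background in the control and stood at −4.86 and −4.75 in the hairpins, and Cd74, the invariant chain of MHC class II, stood at −3.70 in the control, −2.76 in hairpin 1 and −0.0 in hairpin 2. Of 8 adipocyte markers 5 were tested, and Adipoq, Plin1 and Cfd were not, with sums of 21.8, 22.3 and 10.7. The summed leukocyte level was higher in the same arrays as the NF-kB list, and its part in that difference was not tested.

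Across genes the correlation of levels was 0.971 between hairpins, 0.965 between hairpin 1 and control and 0.956 between hairpin 2 and control, and 2116, 2830 and 3205 genes respectively lay at least 2-fold apart. The closest pairs joined a hairpin to another tumour-derived array, with 0.976 and 1781 genes for hairpin 1 and Pik3ca, and 0.976 and 1741 genes for hairpin 2 and Apc. Genes are not independent replicates, and these values describe the arrays. Of the 385 measured genes at least 2-fold higher in both, 296 had hairpins less than 2-fold apart, and hairpin 2 was the higher one in 228. Of the 553 lower, 450 had hairpins less than 2-fold apart, and hairpin 2 was the lower one in 298. At least 4-fold in both were 68 higher and 87 lower.

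A smaller set went opposite ways, with 111 genes at least 2-fold higher in one hairpin and at least 2-fold lower in the other, 39 of them measured. Rhox5, a reproductive homeobox gene on the X chromosome, stood at 1.40 in the control, 7.02 in hairpin 1 and −1.37 in hairpin 2. Nkd1, a feedback inhibitor of Wnt signalling, stood at −1.80 in the control, −5.56 in hairpin 1 and 1.13 in hairpin 2. Clca1, a goblet cell secreted protein gene, stood at −0.83 in the control, 1.30 in hairpin 1 and −4.15 in hairpin 2. Rhox5 and Clca1 were high in hairpin 1 and low in hairpin 2, and Nkd1 the other way round. Gngt2, a G protein subunit gene, stood at −1.71 in the control, 0.52 in hairpin 1 and −3.82 in hairpin 2, and the immunoproteasome gene Psmb8 at −2.95 in the control, −4.54 in hairpin 1 and −1.06 in hairpin 2. With 1 array per hairpin these differences have no replicate check.

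Set against the Apc and Pik3ca arrays in place of the control, the hairpins again gave 0 genes past the test (0.0%) out of 16876, with 817 at an unadjusted p under 0.05 and a smallest limma adjusted p of 0.444. Slide and genotype cannot be told apart in that comparison. Its SE rests on the pair of hairpins and holds none of the spread between the Apc and Pik3ca arrays, whose mean is used. Cdh1 was lower in the hairpins than in the other tumour-derived arrays by −4.37 ± 0.23 (limma adjusted p = 0.873), and Trp53 differed by 0.28 ± 0.22. All of the leading higher measured genes were also at least 2-fold above the shared control in both the Apc and Pik3ca arrays. The smallest such difference was 1.63, for Hkdc1 in Apc. The leading lower measured genes were likewise at least 2-fold below it in both arrays, except Cdh1 and Rps4l. Rps4l differed by −1.05 in Apc and 2.87 in Pik3ca. For Onecut2 the differences from the control were 5.77 in Apc and 5.99 in Pik3ca beside 5.75 and 5.73 in the hairpins. For Cdkn2a they were 3.68 and 3.67 beside 3.94 and 3.91, and for Ak1 −4.83 and −4.78 beside −5.05 and −5.56. For the neck marker Aqp5 they were −0.10 and −0.08 beside −0.85 and −1.34. Over the whole mucous neck list, however, the medians were −0.26 in Apc and −1.31 in Pik3ca, beside −0.86 and −1.16 in hairpins 1 and 2. All of these share the control array. Pitx1, a homeobox gene chosen after its values were seen, was well above background in the control and in neither hairpin, at least 16.6-fold lower in the hairpin mean, while it differed by 1.64 and 4.04 in the Apc and Pik3ca arrays.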

How the data were processed

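RNA from 5 mouse gastric organoid samples was labelled with Cy3 and hybridised to one-colour arrays, per the labels' protocols. The scanned spots were read by Agilent Feature Extraction (version 11.0.1.1 in the submitters' processing notes). Each spot's processed intensity in the deposited files was, per the file headers, background-subtracted and detrended within its array and not normalized between arrays. Median intensities of the spot and its surroundings are given too. A further deposited table holds the authors' log2 values. Compared with the scanner files, its tumour-minus-control differences had slope 1 and r = 1 over 53335 probes, with constants from −0.0458 to −0.0233, so scale and direction are settled and the per-probe centring stays unknown. Its column medians were −0.0572 (control), 0.0738 and 0.0312 (hairpins 1 and 2), −0.0796 (Apc) and 0.0225 (Pik3ca).

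The log2 processed signal was reduced by each array's 75th percentile over 59305 non-control spots. Outlier spots (78 to 114 per array) were left out, and spots of a probe were averaged. Probes were named through their accession and a RefSeq table (GRCm38.p6). Of 56605 probes 34549 had a symbol, giving 23779 genes, each represented by its brightest probe. Tested were the 16876 genes seen well above background by any probe on 1 or more of the 3 arrays. Probes of 1 gene went at least 2-fold in opposite directions in 10 of 6120 genes with several such probes. limma 3.58.1 in R 4.3.3 (lmFit, eBayes, two-sided) compared the pair of hairpins with the control, with 1 residual degree of freedom, Benjamini-Hochberg adjustment over all genes and a threshold of 0.05. The script was tested on simulated data. The labels give the hairpin samples different hairpins, so they were separate cultures, but do not say whether they came from separate animals. The p-values and SEs rest on the spread between these samples, which limma moderates toward the spread over all genes. No gene had an SE below 0.271, even where the hairpins lay 0.02 log2 apart, as for Onecut2. Hairpin, culture and technical differences cannot be told apart in that spread. The number of arrays limits the precision.

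Named genes are Cdh1 and Trp53, the 15 highest and 15 lowest measured genes by the smaller hairpin difference, 8 bounds per direction, up to 5 measured members per list and 5 genes opposite between hairpins. Clone-type names were skipped, some named genes are not reported here, and list members named to spell out a small count, such as Pga5, Cxcl3, Ptprc and Ctnnd2, or marked so in the text, were chosen after their values were seen. The comparison and the 34 gene lists were chosen with earlier results of these data known. Alternatives were another background correction, other scalings, the authors' value table, other filters, a floor on dim signals, the median over probes, a spread pooled with the Apc and Pik3ca arrays, limma with a trended and robust spread, other fold thresholds and leaving out a hairpin.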

Additional observations from a re-analysis of the deposited data

Results flagged for a closer look

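Inhbb and Rps4l were singled out because both hairpin arrays lay on one side of the control and another tumour-derived array on the other. Inhbb, which encodes an activin subunit, was lower than the control in both hairpins and 1.92 log2 higher in the Apc array, while the Pik3ca array differed by −0.77. The difference between the hairpins and the other tumour-derived arrays was −2.32 ± 0.56 for Inhbb (limma adjusted p = 0.984). Rps4l, the copy of a ribosomal protein gene, was lower in both hairpins and 2.87 log2 higher in the Pik3ca array, while the Apc array differed by −1.05. For Rps4l the difference between hairpins and the other tumour-derived arrays was −6.30 ± 0.43 (limma adjusted p = 0.873). Neither difference passed the test, and all of these arrays are set against the same control. The SE of both differences holds none of the spread between the Apc and Pik3ca arrays, which lay far apart. Rps4l stood at 0.05 in the Apc array and 3.98 in the Pik3ca array, so the difference from their mean is less certain than its SE.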

How the results depend on the processing

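No paired analysis was possible because the control group has 1 array and shares only 1 replicate number with the hairpins. The count of genes past the test was 0 in the main analysis and under each of the 13 alternatives, with 1398 to 2538 genes at an unadjusted p under 0.05. Beside the main 810 genes at least 2-fold higher and 808 lower in both hairpins, normexp background correction gave 238 and 428, and the filter on all 3 arrays gave 385 higher. A floor on dim signals gave 489 higher and 723 lower. A 1.5-fold threshold gave 1880 and 1658 genes, and a 4-fold threshold 183 and 214. Leaving out 1 hairpin gave 1358 to 1785 higher and 1420 to 1472 lower, since only 1 array then has to pass. The share of higher genes was 50.1% in the main analysis, 38.9% after quantile normalization, 40.0% after scaling to the array median, 35.7% after normexp and 40.3% with the floor. Scaling to the array median moved the median difference over all genes from 0.07 and 0.08 to −0.04 and −0.06 in hairpins 1 and 2, so small list medians turn with it. The difference of Cdh1 ranged from −4.35 to −4.04 and that of Trp53 from −6.05 to −4.08, and the lowest limma adjusted p over the 193 named genes and all alternatives was 0.0601 (Ces2e, with the spread pooled with the Apc and Pik3ca arrays). With normexp, 52 of the 193 named genes moved by over 1.5 times, 50 of them to a smaller difference, and with the median over probes 13 did. Of these genes 6 had a value of opposite sign under an alternative. Nkd1 was 0.39 with normexp, Gngt2 −0.0639 with the array median, and Runx1, whose probes disagree, −0.79 with the median over probes. Without 1 hairpin, the genes chosen for going opposite ways ranged from −3.75 to 2.93 (Nkd1), −2.77 to 5.62 (Rhox5), −3.32 to 2.13 (Clca1), −2.11 to 2.23 (Gngt2) and −1.59 to 1.89 (Psmb8). List medians kept within the spread between hairpins in 372 of 442 cases and moved beyond it in 70, and those of the desmosome, epithelial identity, Wnt, endocrine, foregut, intestinal, Notch and endothelial lists changed sign in at least 1 alternative. Except where an alternative changes the threshold or the number of arrays, the cause was not tested. The dim genes are limited by background, and a bound cannot say how far below the limit a signal lies.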

Other observations

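When genes were placed on chromosomes by the RefSeq table, chromosome 4 had the lowest median difference from the control in hairpin 2, −0.20 over 967 measured genes, beside 0.02 in hairpin 1. The medians of the other chromosomes in hairpin 2 ran from −0.11 (chromosome 19) to 0.20 (chromosome X). On chromosome 4, 5.07% of measured genes were at least 2-fold lower in both hairpins and 1.65% at least 2-fold higher, beside 3.74% and 2.61% over all measured genes. The share of lower genes was as high on chromosome 3 (5.07%) and nearly so on chromosome 15 (4.93%), so it does not set chromosome 4 apart. In the Apc and Pik3ca arrays the chromosome 4 medians were −0.04 and −0.09. Copy number was not measured, and each hairpin has 1 array.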
